A study of Homo sapiens with 10 samples.

Results

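Aldehyde dehydrogenases oxidise aldehydes to carboxylic acids with NAD+ or NADP+ as the electron acceptor. They clear reactive aldehydes from alcohol, lipid peroxidation and xenobiotics, and they make signalling acids such as retinoic acid from retinal. In lung tumour lines several of them are known as markers of detoxifying capacity, and A549 cells are a textbook source of ALDH1A1 and ALDH3A1 activity. Here 10 of these genes are described by their input RNA and by their m6A-seq peaks, which mark stretches of RNA enriched with an antibody against N6-methyladenosine. The members are ALDH1A1, ALDH1A3, ALDH1B1, ALDH2, ALDH3A1, ALDH3A2, ALDH3B1, ALDH7A1, ALDH9A1 and ALDH18A1. They were taken from a list of names and matched by symbol, and all 10 of 10 were found among the 58037 gene identifiers of the tables. They are 10 of the 19 ALDH superfamily genes looked up, and the other 9 are treated as a list of their own. ALDH1A1 was selected on its own level, as the most abundant RNA of the first pair of A549 inputs, so its level and its change between the lines are given as a description with no test.

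The study compared A549, a human lung adenocarcinoma cell line, with A549/DDP, a derivative of it that is resistant to cisplatin. Both lines were kept to at most 10 passages, and no gene was altered in the libraries used here. Each line had 2 input libraries of poly(A) RNA and 2 m6A-seq libraries, and a second pair of A549 inputs carried labels that name no experiment and stays apart from the comparison. A549/DDP is a single resistant derivative, so a difference between the lines belongs to this pair of lines, and nothing says that replicates came from separate cultures, so p-values measure the spread between these libraries, which may be technical.

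The inputs of the first pair and of A549/DDP held 29225501 to 35286514 expected counts on genes. The second pair held 855034 and 982036, of which 75.2% and 73.9% were mitochondrial, against 0.0363% to 0.0547% in the other 4 libraries. Replicates were not copies of each other, since chi-square per degree of freedom over genes was 83.1 in A549, 53.5 in A549/DDP and 2.39 in the second pair. Of the 6 epithelial markers, all were at or above 1 TPM (a share of all transcripts, scaled for transcript length and library size) in both A549 inputs and in A549/DDP replicate 1, and 5 of 6 were in A549/DDP replicate 2, where 1 was at 0. Their summed level was 8621 and 11389 TPM in A549 and 16047 and 15991 TPM in A549/DDP, led by the keratins. CDH1, KRT8 and KRT18 were higher in A549/DDP and KRT7 was lower (edgeR, adjusted p = 0.022, 0.0324, 0.0146 and 0.0117). KRT19 did not pass (edgeR, adjusted p = 0.221), with 33.3 and 63.95 TPM in A549 and 9.24 and 0 TPM in A549/DDP. EPCAM, a defining epithelial surface marker, was low at 2.45 to 6.95 TPM. The 4 endothelial markers summed to at most 0.4 TPM, with PECAM1 and VWF under 1 TPM throughout. The 5 leukocyte markers summed to 154 to 156 TPM in A549 and 129 to 141 TPM in A549/DDP, nearly all of it CD68, and only that 1 gene of the 5 reached 1 TPM. The 5 fibroblast markers summed to 5.31 to 10.0 TPM in A549 and 3.48 to 21.9 TPM in A549/DDP, with COL1A1 the highest at 1.85 to 14.7 TPM. The epithelial sums did not overlap between the lines, and their part in the results for aldehyde dehydrogenases was not tested. In bulk RNA, fewer cells that express a gene and less of its RNA per cell cannot be told apart.

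Promoter sequence was at hand for 8 of the 10 members, and ALDH2 and ALDH3A1 had no entry. A set of 4 short motifs was searched on both strands in the 250 bases before each start. The CCAAT box (CCAAT) was in 32.0% of 35116 promoter windows, the antioxidant response element core (TGACNNNGC) in 10.9%, the TATA box (TATAAA) in 10.7% and the E-box (CACGTG, the same on both strands) in 6.34%. Neither the antioxidant response element core nor TATAAA was matched in any of the 10 member windows, which says only that these letters are not in these windows. ALDH1A1, ALDH1A3, ALDH1B1, ALDH7A1 and 1 of the 2 windows of ALDH3A2 held a CCAAT box. ALDH18A1 and the same window of ALDH3A2 held an E-box. The 150 bases before the start are shown for ALDH1A1, the most abundant member, for ALDH1A3, the other retinal-oxidising member and one of the least abundant, and for ALDH18A1, a member whose RNA was higher in A549/DDP. They are RefSeq sequences of GRCh38.p14, 5′ to 3′ along the gene, with motif matches in capitals.
ALDH1A1: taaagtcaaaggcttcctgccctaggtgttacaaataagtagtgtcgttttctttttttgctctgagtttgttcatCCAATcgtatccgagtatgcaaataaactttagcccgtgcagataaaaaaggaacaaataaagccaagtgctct
ALDH1A3: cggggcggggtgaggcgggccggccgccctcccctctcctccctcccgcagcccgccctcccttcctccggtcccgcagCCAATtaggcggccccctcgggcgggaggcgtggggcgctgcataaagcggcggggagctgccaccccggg
ALDH18A1: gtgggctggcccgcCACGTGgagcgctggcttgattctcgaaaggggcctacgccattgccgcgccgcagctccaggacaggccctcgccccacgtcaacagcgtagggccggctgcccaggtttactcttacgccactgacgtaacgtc
The ALDH1A1 stretch lies at chr9:72953054-72953203 on the minus strand, that of ALDH1A3 at chr15:100879681-100879830 on the plus strand and that of ALDH18A1 at chr10:95656712-95656861 on the minus strand. In ALDH1A1 and ALDH1A3 the CCAAT box began 74 and 71 bases before the start, while the E-box of ALDH18A1 began 136 bases before it.

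The members spanned more than 2 orders of magnitude in level in each line, with ALDH1A1 far above the rest. In A549 the mean level was 4770 ± 538 TPM (SD, n = 2) for ALDH1A1, 796 ± 124 TPM for ALDH3A1 and 254 ± 42.5 TPM for ALDH3B1, so ALDH1A1 stood 5.99-fold above the next member. ALDH3A2 at 111 ± 24.6 TPM came next, followed by ALDH7A1 at 75.1 ± 16.5 TPM and ALDH2 at 67.4 ± 2.81 TPM, whose libraries overlapped with those of ALDH7A1. ALDH18A1 stood at 54.1 ± 6.91 TPM, and ALDH1B1 at 41.4 ± 0.785 TPM, ALDH1A3 at 33.1 ± 15.0 TPM and ALDH9A1 at 29.7 ± 2.66 TPM closed the order, and the ALDH1A3 libraries overlapped with those of both ALDH1B1 and ALDH9A1. In A549/DDP the order was ALDH1A1, ALDH3A1, ALDH2, ALDH3B1, ALDH18A1, ALDH3A2, ALDH7A1, ALDH9A1, ALDH1B1 and ALDH1A3. There ALDH2 overlapped with ALDH3B1, ALDH18A1 with ALDH3A2, and ALDH9A1 with ALDH1B1. ALDH2 stood 6th of 10 in A549 and 3rd in A549/DDP. ALDH1A1 held 77.0% and 76.1% of the summed TPM of the members in A549 and 62.0% and 62.8% in A549/DDP, while the sum itself was 5698 and 6764 TPM in A549 and 7486 and 7557 TPM in A549/DDP.

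**Figure D1:**
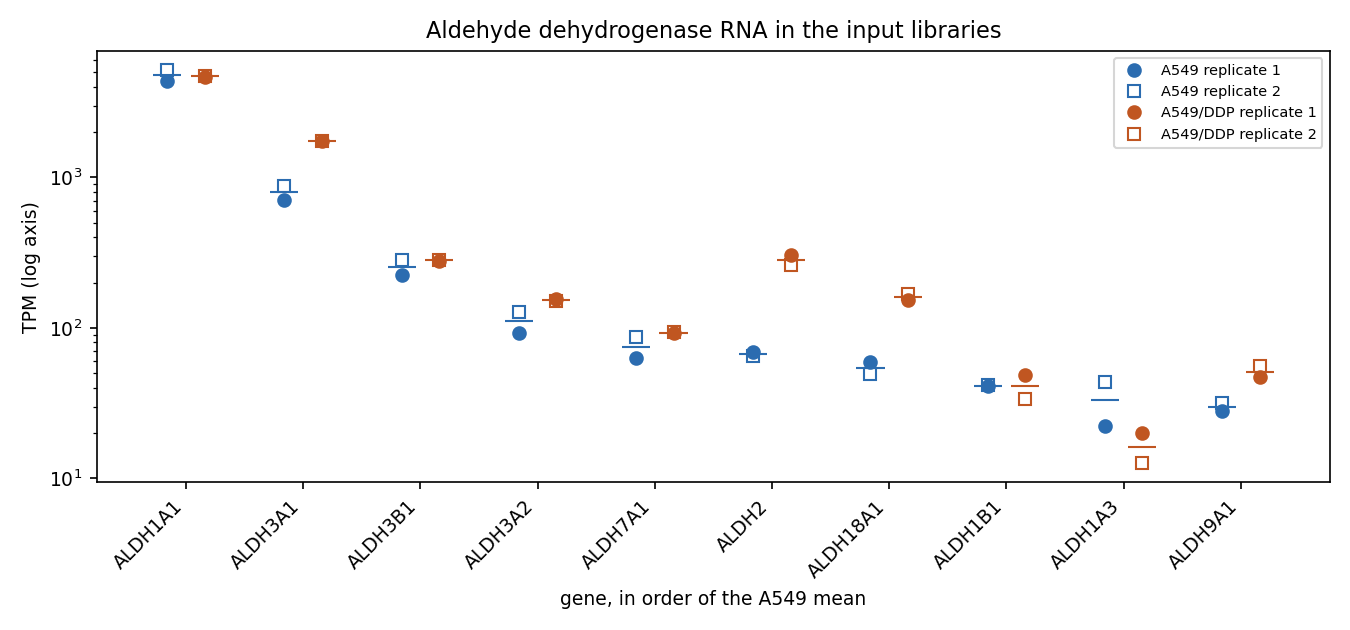
TPM of each member (log axis) in the 2 A549 inputs (blue) and 2 A549/DDP inputs (orange), with short lines at the means. ALDH1A1 lies between 4390 and 5150 TPM in all 4 libraries, while ALDH2 lies at 65.4 and 69.4 TPM in A549 and at 263 and 305 TPM in A549/DDP.

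ALDH1A1 and ALDH1A3 are cytosolic enzymes that oxidise retinal to retinoic acid. ALDH1A1 (ENSG00000165092.12, chr9:72900671-72953053 in GRCh38.p14) had 4390 and 5150 TPM in the A549 inputs and 4645 and 4744 TPM in the A549/DDP inputs. The lines overlapped, and both A549/DDP libraries lay between the A549 libraries. Its expected counts ranked 1st of all genes in both A549 inputs and 4th in both A549/DDP inputs. Per transcript length it ranked 7th and 3rd in A549 and 12th and 8th in A549/DDP, so that it is the most abundant RNA of the A549 inputs by counts but not by TPM. The log2 fold change of its counts, A549/DDP over A549, was -0.02 with a standard error of 0.13. ALDH1A3 (ENSG00000184254.16, chr15:100879831-100916626) had 22.5 and 43.7 TPM in A549 and 19.9 and 12.7 TPM in A549/DDP. Its TPM did not overlap between the lines, and its A549 libraries lay further apart than those of any other member in proportion to their mean. The log2 fold change of its counts was -0.52 with a standard error of 0.33 (edgeR quasi-likelihood test, adjusted p = 0.356), which did not pass. The mean transcript length that RSEM assigned to it was 1393 and 1083 bases in A549 and 1409 and 1968 bases in A549/DDP, so its TPM and its counts did not move by the same amount. The antisense gene ALDH1A3-AS1 had 0.55 to 2.27 TPM in these libraries, and since the strand setting of the counting is not given, reads of the pair may not be fully separated.

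ALDH2 and ALDH1B1 are mitochondrial enzymes of acetaldehyde oxidation, and ALDH2 is the main one in alcohol metabolism. ALDH2 (ENSG00000111275.12, chr12:111766933-111817532) had 69.4 and 65.4 TPM in A549 and 305 and 263 TPM in A549/DDP. Both resistant libraries were far above both parental ones. On TMM-normalised counts it rose from 78.5 ± 2.50 to 319 ± 20.5 CPM (counts scaled for library size only; SD, n = 2), a 4.06-fold change, which was the largest among the members. The log2 fold change was 2.02 with a standard error of 0.17 (edgeR, adjusted p = 0.0029). ALDH1B1 (ENSG00000137124.7, chr9:38392702-38398661) had 40.8 and 42.0 TPM in A549 and 49.0 and 33.8 TPM in A549/DDP. Its A549/DDP libraries lay on either side of the A549 libraries, so the lines overlapped. Its log2 fold change was -0.0043 with a standard error of 0.24 (edgeR, adjusted p = 0.995), and the sign of this value changed with the processing.

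The ALDH3 genes encode enzymes of aromatic and fatty aldehydes. ALDH3A1 (ENSG00000108602.17, chr17:19737984-19748298), a cytosolic enzyme abundant in the cornea and known for oxidising aromatic and lipid-derived aldehydes, had 708 and 884 TPM in A549 and 1738 and 1750 TPM in A549/DDP. The lines did not overlap, and the A549/DDP libraries nearly coincided. Its normalised counts rose from 730 ± 5.93 to 1641 ± 5.44 CPM, 2.25-fold, with a log2 fold change of 1.17 and a standard error of 0.14 (edgeR, adjusted p = 0.0063). ALDH3A2 (ENSG00000072210.18, chr17:19648136-19677596) is the fatty aldehyde dehydrogenase of the endoplasmic reticulum, whose loss causes Sjögren-Larsson syndrome. It had 93.2 and 128 TPM in A549 and 156 and 150 TPM in A549/DDP, without overlap. Its log2 fold change of 0.59, with a standard error of 0.19, did not pass (edgeR, adjusted p = 0.0902). Over leaving out each replicate this log2 fold change ran from 0.42 to 0.74. ALDH3B1 (ENSG00000006534.15, chr11:68008547-68029276), which oxidises medium- and long-chain aldehydes at membranes, had 224 and 284 TPM in A549 and 279 and 284 TPM in A549/DDP. A549 replicate 2 lay within the A549/DDP range, and its log2 fold change was 0.16 with a standard error of 0.15 (edgeR, adjusted p = 0.541).

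The remaining 3 members act in amino acid and amine metabolism. ALDH18A1 (ENSG00000059573.8, chr10:95605941-95656711) encodes pyrroline-5-carboxylate synthase, which starts proline and ornithine synthesis from glutamate, and differs from the others in reducing its substrate. It had 59.0 and 49.2 TPM in A549 and 154 and 169 TPM in A549/DDP. The lines did not overlap. Its normalised counts rose from 96.0 ± 0.133 to 233 ± 30.2 CPM, 2.42-fold, with a log2 fold change of 1.28 and a standard error of 0.18 (edgeR, adjusted p = 0.0094). ALDH7A1 (ENSG00000164904.16, chr5:126541841-126595219) encodes antiquitin, which acts in lysine breakdown and whose loss causes pyridoxine-dependent epilepsy. It had 63.4 and 86.7 TPM in A549 and 92.9 and 93.5 TPM in A549/DDP, without overlap, but the log2 fold change of 0.42 with a standard error of 0.19 did not pass (edgeR, adjusted p = 0.187). Its processed pseudogene ALDH7A1P1 was listed at 0.1 to 0.28 TPM and the 3 other pseudogenes at 0. ALDH9A1 (ENSG00000143149.12, chr1:165662216-165698562), an enzyme of betaine, gamma-aminobutyric acid and carnitine synthesis, had 27.8 and 31.6 TPM in A549 and 47.2 and 55.4 TPM in A549/DDP. Its TPM did not overlap, at a ratio of means of 1.73, while its counts changed by 1.38-fold (log2 fold change 0.47, standard error 0.21, edgeR adjusted p = 0.181). The mean transcript length assigned to ALDH9A1 was 2304 and 2696 bases in A549 and 2179 and 1911 bases in A549/DDP, a shorter length that raises TPM against counts.

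All 10 members passed the filter on low counts. Of the 9 that were tested, 3 were higher in A549/DDP (ALDH2, ALDH3A1 and ALDH18A1), 0 were lower and 6 did not pass. Among all 16406 genes tested, 14.9% passed in either direction, 6.85% were higher and 8.00% were lower in A549/DDP. The median log2 fold change of the 9 members was 0.47, against -0.0016 over all genes tested. Above 0 were 7 of the 9 members and 8192 of the 16406 genes tested. For 7 of the 10 members the TPM of the lines did not overlap, with 6 up and 1 down in A549/DDP, and the same held for 58.5% of all genes tested. The mean transcript length did not overlap for 3 of 10 members, ALDH1A1, ALDH1A3 and ALDH9A1, against 30.5% of all genes tested. For ALDH1A1 this gap was only 8.57 bases.

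**Figure D2:**
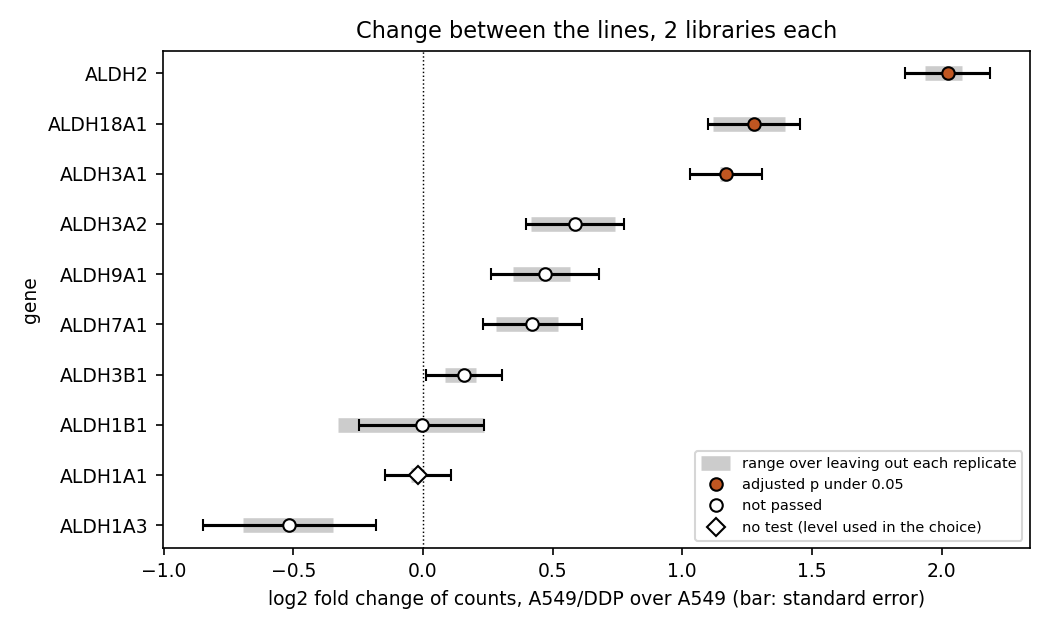
Log2 fold change of counts, A549/DDP over A549, with its standard error (bars) and the range over leaving out each replicate (grey). ALDH2, ALDH18A1 and ALDH3A1 passed at 2.02, 1.28 and 1.17, and ALDH1A1 is a diamond because it was not tested.

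Of the 9 other superfamily genes, 6 passed the filter, 2 of these were higher in A549/DDP, 0 were lower and 4 did not pass, with a median log2 fold change of 0.58. ALDH5A1, succinic semialdehyde dehydrogenase, had 8.81 and 10.0 TPM in A549 and 35.2 and 23.3 TPM in A549/DDP (log2 fold change 1.99, standard error 0.37, edgeR adjusted p = 0.0209). ALDH16A1 had 10.6 and 15.2 TPM in A549 and 47.6 and 85.7 TPM in A549/DDP (log2 fold change 2.21, standard error 0.37, edgeR adjusted p = 0.0154). Both were below ALDH2 in level in every input of the comparison. ALDH1A2, the embryonic retinal-oxidising enzyme, was filtered out with at most 0.16 TPM. Of ALDH1A1, ALDH1A2 and ALDH1A3, ALDH1A1 had the highest TPM in both lines, but its level in A549 was the reason for its choice.

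Genes around the members' reactions were read as lists. Of 19 genes of retinoid handling and response, 17 passed the filter, 3 were higher and 1 was lower in A549/DDP, with a median log2 fold change of 0.28. RDH10, which makes the retinal that ALDH1A enzymes use, had 7.72 and 12.7 TPM in A549 and 99.9 and 105 TPM in A549/DDP (log2 fold change 2.63, edgeR adjusted p = 0.0038). Among the receptors of retinoic acid, RARB, itself a known retinoic acid target, was higher (log2 fold change 1.44, edgeR adjusted p = 0.022), RXRA was higher (1.16, adjusted p = 0.0182) and RARA was lower (-1.64, adjusted p = 0.0262). RARA had 110 and 103 TPM in A549 and 17.0 and 37.6 TPM in A549/DDP. CYP26A1, which breaks down retinoic acid, was near the floor at 0.04 to 2 TPM, and CYP26B1 had 23.2 to 63.6 TPM with overlapping lines (edgeR, adjusted p = 0.523).

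Of 12 alcohol dehydrogenases and other carbonyl enzymes, 11 passed the filter, 2 were higher and 1 was lower in A549/DDP. CBR1, a carbonyl reductase, had 55.4 and 82.2 TPM in A549 and 163 and 177 TPM in A549/DDP (log2 fold change 1.32, edgeR adjusted p = 0.0122). ADH6, an alcohol dehydrogenase, was barely detected in A549 at 0.1 and 0.02 TPM and had 8.24 and 10.1 TPM in A549/DDP. It is among the genes counted as higher, but at 0.182 and 0.0282 CPM in A549 it passed the filter only through A549/DDP (10.9 and 5.53 CPM), so it had to differ and no fold is given. AOX1, aldehyde oxidase, which also turns aldehydes into acids but without NAD+, had 23.7 and 12.8 TPM in A549 and 2.28 and 2.65 TPM in A549/DDP (log2 fold change -2.48, edgeR adjusted p = 0.0423). ALDH2 and ALDH3A1 were thus higher in A549/DDP and AOX1 was lower.

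Of 7 genes of proline and ornithine metabolism, all passed the filter, 2 were higher, 0 were lower and 5 did not pass, with a median log2 fold change of 0.93. OAT, ornithine aminotransferase, which shares the semialdehyde product of ALDH18A1, had 26.1 and 27.4 TPM in A549 and 111 and 81.1 TPM in A549/DDP (log2 fold change 2.35, edgeR adjusted p = 0.0037). PYCR3, a reductase that makes proline, had 13.4 and 10.3 TPM in A549 and 25.6 and 30.6 TPM in A549/DDP (log2 fold change 1.29, edgeR adjusted p = 0.0386). PYCR1, the most abundant reductase of that step in A549, had 235 and 185 TPM in A549 and 135 and 86.7 TPM in A549/DDP, and its log2 fold change of -0.64 did not pass (edgeR, adjusted p = 0.14). PYCR1 was named after its values were seen. Of 11 genes of lysine, choline and carnitine routes, 7 passed the filter and only CHDH, choline dehydrogenase, was called, with 2.2 and 1.71 TPM in A549 and 4.44 and 12.9 TPM in A549/DDP (log2 fold change 1.70, edgeR adjusted p = 0.047). Of 6 genes of fatty aldehyde and sphingoid base routes, 0 were called, and their log2 fold changes ran from -1.08 to 0.28 beside 0.59 for ALDH3A2.

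The profile of ALDH1A1 over all 6 input libraries was compared with that of 14622 genes with a mean of at least 1 TPM, by the Euclidean distance of centred log2(TPM + 1) values. The nearest were EPN1 at a distance of 0.095, C20orf96 at 0.146 and PTP4A2 at 0.159, against a median of 1.93 over all genes compared. All 3 had close levels in the 4 deeper libraries and a lower TPM in the second pair. EPN1 had 116 to 145 TPM in the former and 7.5 and 7.96 TPM in the latter. C20orf96 had 13.0 to 15.5 TPM and then 0 in both second-pair libraries, so its distance depends on the pseudocount. A lower TPM in the second pair is not particular to these genes, since the mitochondrial share there lowers that of every other gene.

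In the second pair of A549 inputs the mitochondrial share lowers the TPM of every other gene, so members were compared in CPM of the counts outside mitochondrial genes, a scale that is not corrected for length. ALDH1A1 had 667 and 797 counts there, or 3149 (95% exact binomial interval 2915 to 3397) and 3113 (2900 to 3336) CPM. In the first A549 pair the same quantity was 5609 and 6284 CPM. On this scale ALDH1A1 was lower in the second pair, as was every other member, and it was still the highest member. After TMM normalisation its log2 fold change, A549/DDP over A549, was -0.025 with the second pair and -0.019 with the first. Whether ALDH1A1 was lower in the second pair thus depends on the scale. ALDH3A1 was at 109 (68.8 to 163) and 82.0 (50.8 to 125) CPM against 677 and 753 in the first pair. ALDH2 had 3 and 5 counts, or 14.2 (2.92 to 41.4) and 19.5 (6.34 to 45.6) CPM, against 74.8 and 78.7. ALDH1A3 had 2 and 0 counts, and the count of 0 allows up to 11.7 CPM at the 3-count limit, a one-sided bound, and up to 14.4 CPM by the interval used for the other values. These intervals cover counting error only, and 9 of the 10 members had at most 23 counts in either library. Among these 9, the interval of ALDH3A1 lay above those of ALDH2 and ALDH1A3 in both libraries, and no other pair was separated in both at this depth.

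**Figure D3:**
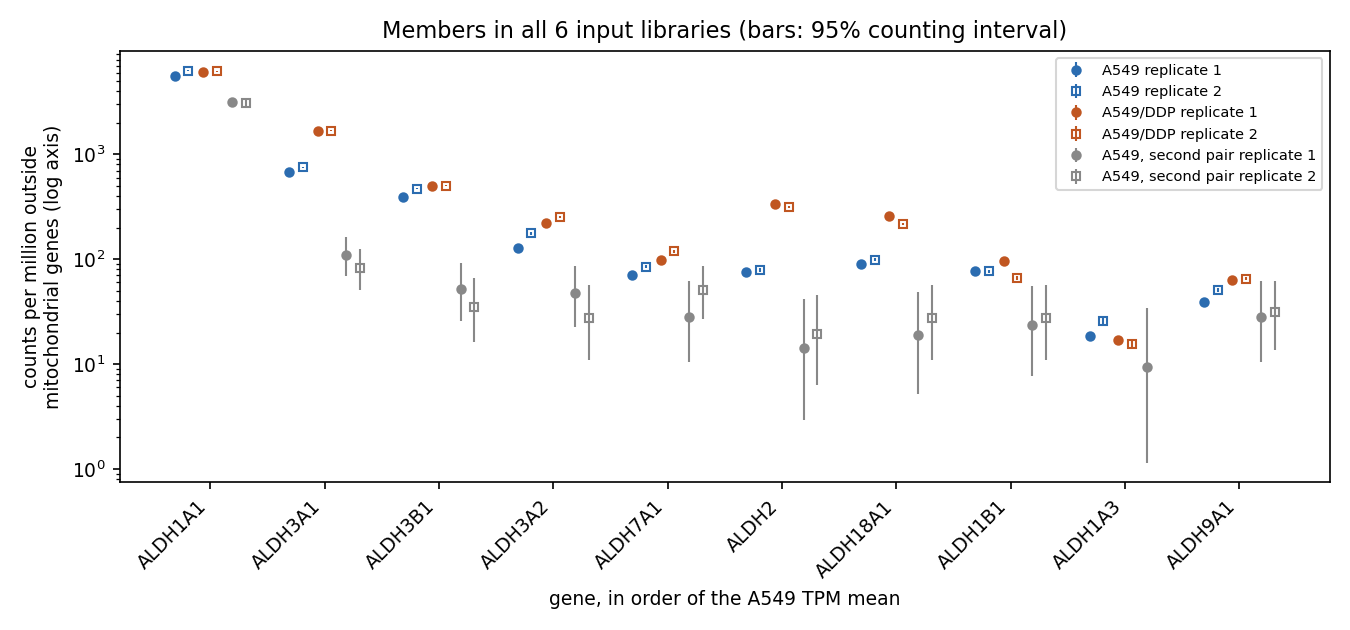
Counts of each member, in CPM of the counts outside mitochondrial genes (log axis) in all 6 inputs, with 95% counting intervals; a library with 0 counts (ALDH1A3 in 1 second-pair library) is not drawn. On this scale the second A549 pair (grey) lies at 3113 and 3149 CPM for ALDH1A1, below 5609 and 6284 in the first pair, and the other members are lower there too.

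For m6A the authors made 1 peak list per library, with 26320 and 14576 peaks for the A549 replicates and 27244 and 10661 for those of A549/DDP. The lists hold a p-value for each peak but no level or depth, so a gene without a peak was not called, which does not show that it carries no m6A. Peaks were called in 43.8% and 30.6% of 16389 distinct tested genes in A549 and in 40.7% and 22.2% in A549/DDP. Of the 10 members, 5 had a peak in each A549 list, 6 in the first A549/DDP list and 5 in the second. ALDH1A1, ALDH2 and ALDH7A1 had no peak in any of the 4 lists, although ALDH1A1 is the most abundant member, and 42.9% of tested genes had none either. Among the 136 tested genes with a mean of at least 1000 TPM, 35 (25.7%) had no peak in any list. ALDH1B1, ALDH3A1, ALDH3A2 and ALDH3B1 had peaks in all 4 lists, as did 13.9% of tested genes.

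**Figure D4:**
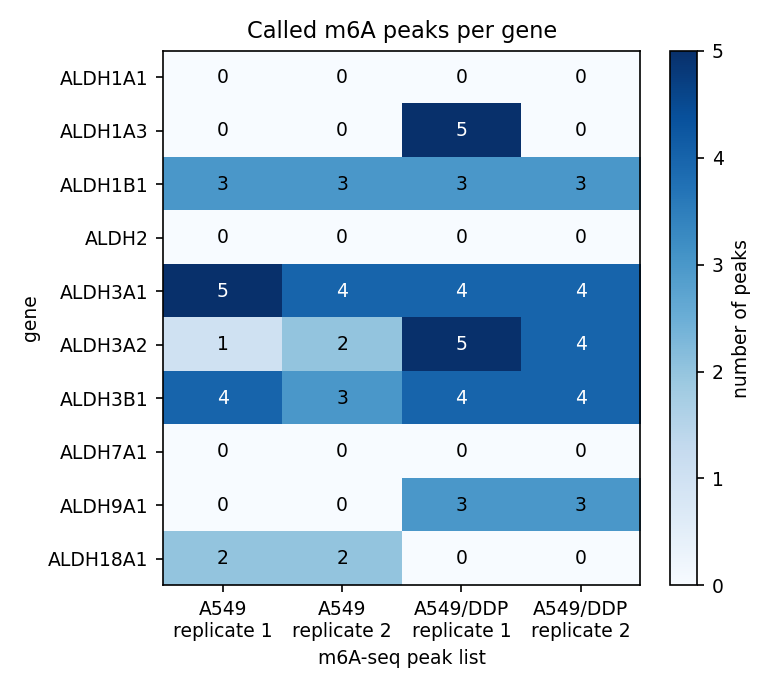
Number of called m6A peaks of each member (rows) in each of the 4 lists (columns), from 0 (white) to 5 (dark blue). ALDH1A1, ALDH2 and ALDH7A1 have 0 in every list, ALDH9A1 has 3 in each A549/DDP list and 0 in A549, and ALDH18A1 has 2 in each A549 list and 0 in A549/DDP.

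ALDH18A1 and ALDH9A1 were the members whose called peaks went with the line. ALDH18A1 had 2 peaks in each A549 list and 0 in both A549/DDP lists, as was the case for a peak in 4.63% of tested genes. Its regions were chr10:95606722-95606920 on the minus strand, within 1 kb of the 3′ end of the gene, with p-values of 0.0038 and 0.0069, and chr10:95613782-95616496, whose exon blocks cover 298 bases, with 0.00066 and 0.0069. The input RNA of ALDH18A1 was higher in A549/DDP, where these peaks were not called. ALDH9A1 had 0 peaks in both A549 lists and 3 in each A549/DDP list, a pattern of 1.98% of tested genes. Only 1 of its 5 regions, chr1:165662364-165662660 on the minus strand near the 3′ end of the gene, was called in both A549/DDP replicates, with p-values of 0.0023 and 0.0021. The other 4 regions were each called in 1 library. ALDH9A1 had the lowest mean level of the members in A549, at 29.7 TPM, and 51.3 TPM in A549/DDP. Whether RNA level bears on the calls of either gene was not tested.

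Within the ALDH3 genes most regions were called in at least 1 list of each line, and fewer were called in all 4 lists. ALDH3A1 had 6 merged regions, of which 2 were called in all 4 lists: chr17:19738034-19739010 near the 3′ end and chr17:19744969-19745365 in the 5′ part of the gene. The latter had the lowest p-value of any member peak, 3.2e-13 in A549/DDP replicate 2, and between 4.1e-06 and 2.1e-07 in the other 3. A region at chr17:19748330-19748844 was called in both A549 lists and neither A549/DDP list, with p-values of 8.3e-06 and 0.00035, and lies outside the RefSeq span of the gene, upstream of its 5′ end. ALDH3A2 had 1 region in all 4 lists, chr17:19676853-19677548 at the 3′ end, and 2 regions in both A549/DDP lists and neither A549 list, chr17:19671802-19673214 and chr17:19676505-19676803. The latter pair had p-values of 1e-05 and 6.2e-07 in A549/DDP replicate 1 and 0.0021 and 0.0011 in replicate 2. The region chr17:19676505-19676803 ends just before the one called in all 4 lists begins. Its call in 1 line only thus depends on where neighbouring peaks were split. ALDH3B1 had 4 regions, with chr11:68026098-68028435 and chr11:68028485-68029232 in all 4 lists.

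ALDH1B1 had 3 peaks in every list, and 2 of its 3 regions, chr9:38395803-38396493 and chr9:38396640-38398168, were called in all 4. Their lowest p-values per library ran from 0.00029 to 0.011. ALDH1A3 had 5 peaks in A549/DDP replicate 1, with p-values of 2e-07 and 2.2e-06, and 0 in the other 3 lists, replicate 2 of the same line included. All but 1 of the 29 member regions lay within the RefSeq gene span.

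Over the members, 29 merged regions were found, of which 7 were called in all 4 lists, 3 in both A549 and neither A549/DDP list and 3 in both A549/DDP and neither A549 list. Of all 37903 merged regions, 3304 were called in all 4 lists. In both A549 and neither A549/DDP list 6.12% were called, and 3.09% were of the reverse kind. The 3 parental regions were 2 in ALDH18A1 and 1 in ALDH3A1, and the 3 resistant regions were 2 in ALDH3A2 and 1 in ALDH9A1. With peaks at a p-value of at most 1e-05 alone, 17 member regions were left and 0 of them were of either kind, against 3.22% and 2.79% of all 26603 regions at that limit, so the 0 says little about the members. Among the 9 other superfamily genes, ALDH16A1 had 4 peaks in A549 replicate 1 and 1 in A549/DDP replicate 1, ALDH1L2 had 1 in A549 replicate 1, and the other 7 genes had none.

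**Figure D5:**
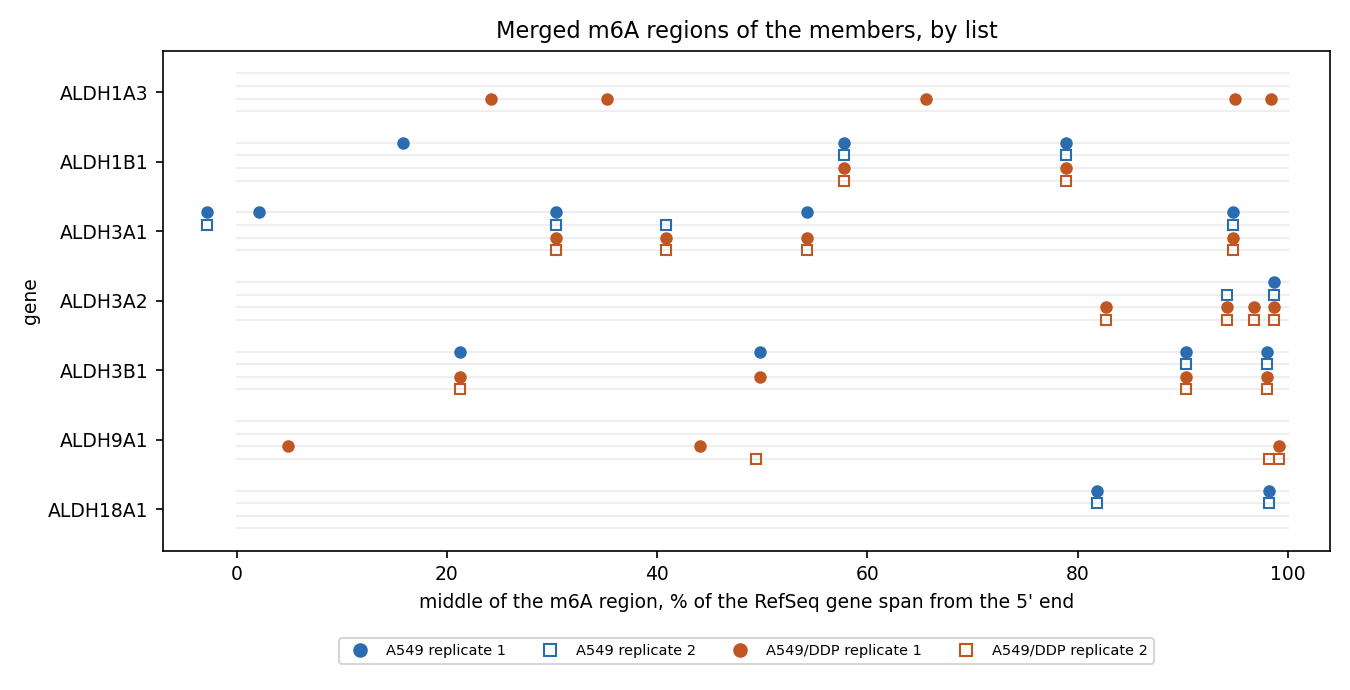
Middle of each merged m6A region as a percentage of the RefSeq gene span from the 5′ end, with 1 line for each list (A549 blue, A549/DDP orange). The 2 ALDH18A1 regions are marked in both A549 lists and in neither A549/DDP list. The ALDH3A1 region left of 0% lies upstream of the RefSeq span, though the peak lists assign it to ALDH3A1.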

How the data were processed

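Per input library, the deposited values are expected counts and TPM of every gene, in the layout of RSEM. The expected counts the authors deposited are estimates that need not be whole, and their deposited TPM also correct for transcript length and depth. Per m6A-seq library, the authors deposited peaks with strand, exon blocks, a gene and a p-value, and the lists do not say whether that deposited p-value is adjusted. Transcript lengths are those the authors deposited. The submitters' processing notes name STAR, RSEM, bedtools and hg38, and the peak caller is not given in the sources used here.

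Replicate numbers follow the labels, which for the A549 m6A-seq pair are swapped against those in the names of the deposited files. Rounded expected counts of the 2 A549 and 2 A549/DDP inputs were filtered (filterByExpr), TMM-normalised and compared by the quasi-likelihood test of edgeR 4.0.16 in R 4.3.3 (glmQLFit, glmQLFTest), with Benjamini-Hochberg adjustment over 16406 genes and a threshold of 0.05. A standard error was taken as the absolute log2 fold change over the root of F, an approximation. DESeq2 1.42.0, limma 3.58.1 on log2 TPM with a pseudocount of 1 or 0.1, other filters and scalings, a replicate block, the second A549 pair and leaving out each replicate were alternatives. The computations were tested on simulated data. The simulated counts had less spread than these libraries and larger changes than those of the members. That test therefore does not show how the fits behave at the spread and changes seen here.

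Peaks on the same strand were merged if their exon blocks overlapped by 1 base or more. Positions are counted from 1, and gene spans and promoters are from RefSeq GRCh38.p14, matched by symbol. Genes of a list were named by a rule: an adjusted p under 0.05 and a mean of at least 1 TPM, at most 4 for each list. The members and the lists were chosen with earlier results of these data known.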

Additional observations from a re-analysis of the deposited data

How the results depend on the processing

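ALDH2 passed in all 14 alternatives of the comparison of inputs, at log2 fold changes of 1.94 to 3.26, and ALDH3A1 and ALDH18A1 passed in 13 of 14. With both pairs of A549 inputs in 1 fit, ALDH3A1 had an adjusted p of 0.109 and ALDH18A1 of 0.0589, so the count of members fell from 3 to 1. With the second pair in place of the first it was 5 of 9, the addition being ALDH3A2 and ALDH3B1. In that fit 3758 of 13815 genes tested passed, 2371 of them higher in A549/DDP, and the median of all genes moved to 0.80 on the log2 scale. In the second pair ALDH3A2 had only 10 and 7 counts and ALDH3B1 only 11 and 9. Leaving out each replicate gave 3 or 4 members. ALDH3A2 passed in 5 of 14 alternatives, with DESeq2 (adjusted p = 0.0215) among them. ALDH1B1 changed sign, with log2 fold changes of 0.049 (upper-quartile scaling), 0.0031 (at least 10 counts in every library), 0.66 (second pair), 0.13 (both pairs) and -0.33 to 0.24 over leaving out each replicate, and ALDH1A3 did so with the second pair (0.91). ALDH1A1 stayed between -0.15 and 0.03.

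Over all genes the count of 2437 was 4234 with DESeq2, 4010 with no filter beyond 1 count, 3758 with the second pair, 677 with both pairs, 1492 with limma at a pseudocount of 1 and 1177 at 0.1, and 2052 to 3809 over leaving out each replicate, the highest without A549 replicate 2. The share of higher calls was 46.1% in the fit reported and 63.1% with the second pair. The cause was not tested. Same-numbered libraries share only a number, with a correlation of their deviations of 0.0259, and the replicate block gave 3536 genes and 3 members.

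Of the member regions called in both libraries of 1 line only, 3 in each direction, 0 and 0 were left with peaks at a p-value of at most 1e-05. Leaving out each list, which leaves 1 list for that line, gave 3 to 5 regions for A549 and 5 to 10 for A549/DDP, the highest without A549/DDP replicate 2. The same counts over all regions rose too, to 7.15% to 31.0% of them for A549 and 3.99% to 31.0% for A549/DDP, so the rise is not particular to the members. The number of inputs and the unknown depth of the m6A-seq libraries limit the precision.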
